A study of Rattus norvegicus with 6 samples.

Results

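The 10 genes followed here in rat vascular smooth muscle cells fill, empty and gate the calcium stores of the cell or carry calcium out across the plasma membrane. They are the sodium-calcium exchanger Slc8a1, the store pumps Atp2a2 and Atp2a3, the plasma membrane pumps Atp2b1 and Atp2b4, the store release channels Itpr1, Itpr2 and Itpr3, the store sensor Stim1 and the entry channel Orai1. They were taken by gene symbol from the 30945 genes of the files. All 10 symbols matched 1 row each, and all 10 were among the 13016 genes abundant enough to be tested. The study sequenced total RNA of primary cells in 6 libraries, with 3 labelled Negative_control and 3 labelled siRNA_ANK. A primary cell is grown from tissue and has not been immortalised, and an siRNA is a short double-stranded RNA that lowers the transcript it matches. The labels used here give a single siRNA name and neither the vessel, the strain, the age of the animals, the dose nor the time after transfection. Whether replicates are separate animals or separate dishes is also not stated, and the p-values then measure only how these libraries spread, which may be technical.

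Calcium in the cytosol sets the force of a smooth muscle cell. Hormones that act through phospholipase C make inositol trisphosphate (IP3), which opens IP3 receptors and lets calcium leave the sarcoplasmic or endoplasmic reticulum. Pumps of the SERCA type, encoded by the Atp2a genes, return it to the store, while pumps of the PMCA type, encoded by the Atp2b genes, and the exchanger NCX1, encoded by Slc8a1, move it out of the cell. When the store runs low, STIM1 in its membrane senses the loss and opens ORAI1 channels in the plasma membrane. Calcium in the store also serves the folding enzymes of the endoplasmic reticulum, many of which bind it.

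The upstream sequence of Atp2a2 is shown first. This gene fell in siRNA_ANK, as did some folding genes of the endoplasmic reticulum whose promoters hold the ER stress element. Whether the element has a part in these falls was not tested. That element is spelled CCAAT, any 9 bases, then CCACG. The windows came from the RefSeq promoter table for GRCr8, which holds 250 bases before and 50 bases after 1 annotated start per gene, and all 10 members had an entry. The 250 bases before the start of Atp2a2 (GRCr8, chr12:39733269-39733518, plus strand) are given 5′ to 3′. Capitals mark a stretch that is spelled CCAAT, any 9 bases, then CCACA, with the last base different from that of the element.
Atp2a2: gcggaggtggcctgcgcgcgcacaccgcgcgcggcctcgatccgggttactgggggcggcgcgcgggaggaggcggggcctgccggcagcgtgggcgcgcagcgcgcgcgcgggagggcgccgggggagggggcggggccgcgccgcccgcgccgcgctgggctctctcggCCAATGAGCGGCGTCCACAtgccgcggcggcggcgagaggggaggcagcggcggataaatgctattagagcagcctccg

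The stretch in Atp2a2 lay 79 to 61 bases before the start. The exact element was in the window of 22 of 33469 genes (0.0657%), and the variant, which was added to the search after the Atp2a2 sequence had been read, was in 31 (0.0926%). Both strands were searched. None of the 10 members held the exact element. Atp2a2 was the only member with the variant, and its match was fixed by how the variant was chosen. Of 21 proteins listed for the endoplasmic reticulum that bind calcium or work with those that do, 17 had an entry. None of these held the variant, and 4 held the exact element, with 2 copies in Hsp90b1. The sites are set beside that of Atp2a2, with the fixed letters in capitals.
Atp2a2: CCAATgagcggcgtCCACA
Hspa5: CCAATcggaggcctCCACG
Hsp90b1, first site: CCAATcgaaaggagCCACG
Hsp90b1, second site: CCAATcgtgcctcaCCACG
Canx: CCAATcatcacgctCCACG
Calr: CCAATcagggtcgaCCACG

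A related element, TGACGTGG, was in 0.595% of all windows and in none of the members, and the CArG box, the binding site of serum response factor, was in 1.64% of all windows and in none of the members. These matches describe letters in 1 window per gene, and the annotated start need not be the one used in these cells. The members with the largest rises, Slc8a1 and Atp2b4, differed from the others in base composition. Slc8a1 had 35.2% G and C in the 250 bases before its start and Atp2b4 had 46.4%. The other 8 members had 62.0% to 80.0%, and the median over all genes was 51.2%. Itpr1, which also rose, had 62.0%, and a link between base composition and direction was not tested. The upstream sequences of Slc8a1 and Atp2b4 are shown for their contrast with Atp2a2, at GRCr8 chr6:19023309-19023558 on the plus strand and chr13:47758877-47759126 on the minus strand. No motif searched was found in them, so they hold no capitals.
Slc8a1: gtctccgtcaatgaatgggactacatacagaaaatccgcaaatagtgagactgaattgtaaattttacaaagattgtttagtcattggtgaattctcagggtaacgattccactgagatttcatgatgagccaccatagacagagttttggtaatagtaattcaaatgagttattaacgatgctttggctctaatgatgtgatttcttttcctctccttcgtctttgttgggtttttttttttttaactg
Atp2b4: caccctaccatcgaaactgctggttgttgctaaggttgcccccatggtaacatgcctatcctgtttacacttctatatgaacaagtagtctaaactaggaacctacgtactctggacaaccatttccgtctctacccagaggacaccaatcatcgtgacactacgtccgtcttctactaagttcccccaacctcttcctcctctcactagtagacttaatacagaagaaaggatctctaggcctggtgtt

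Library totals lay between 15641259 and 17441548 counts. Levels are given as CPM, counts per 1000000 of a library total scaled with TMM factors, which correct for differences in composition. Ankh, whose protein is also called ANK, was 3.75-fold lower in siRNA_ANK by group means (352 ± 14.7 against 93.7 ± 22.8 CPM, SD, n = 3). Of 10 smooth muscle markers 9 rose, and their summed level, mostly from Acta2 and Tagln, was 2717 to 3784 CPM in the controls and 5406 to 6506 CPM in siRNA_ANK. Des, which did not pass the test, was at 1.71 to 2.34 CPM over the 6 libraries. Of 8 fibroblast markers tested 6 rose and 1 fell (summed level of the list 280 to 321 against 432 to 479 CPM). For endothelial cells 1 of 3 tested rose, Erg (4.97 to 18.5 CPM by group means), and 1 fell, Egfl7 (11.3 to 5.99 CPM). The higher summed level of that list in siRNA_ANK came from Erg (15.2 to 20.5 against 23.9 to 27.5 CPM), and Cdh5, Kdr, Tie1 and Emcn were at 0 counts. For leukocytes the only one tested, Cd14, fell, and the summed level of the whole list was 24.8 to 28.1 against 11.3 to 15.1 CPM, with Ptprc, Itgam, Adgre1 and Cd3e at 0. Of 3 striated muscle markers tested 1 rose, Myh2, and the summed level of the whole list was 7.06 to 13.9 against 42.9 to 78.0 CPM, with Myod1, Myog, Myh6 and Myh7 at 0. Pericyte and neural markers summed to 571 to 691 and 441 to 479 CPM (2 of 6 rose, 1 fell). Most of that sum was Cspg4, the one that fell (583 to 424 CPM by group means). The rises were in scarce genes, Kcnj8 (0.413 to 1.63 CPM) and Rgs5 (0.220 to 1.14 CPM). For comparison with these counts, 19.9% of all genes tested rose and 20.2% fell by the test given below. The part of these marker shifts in the results on calcium genes was not tested.

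Of the 10 members, 3 rose and 3 fell in siRNA_ANK. The test was edgeR's quasi-likelihood test with p-values adjusted over all genes tested (Benjamini-Hochberg), and a gene was called at an adjusted p under 0.05. Over all genes tested, 40.1% were called, 19.9% higher and 20.2% lower, so 6 of 10 is to be read against that share. The members were chosen with earlier results of these data known. Comparisons with all genes therefore cannot show that calcium genes changed more often or more strongly. Slc8a1, Atp2b4 and Itpr1 rose, and Atp2a2, Itpr3 and Atp2b1 fell. The first pair of rises also passed 2-fold. Of all genes tested, 7.15% were called with a change of at least 2-fold in either direction. The median log2 fold change of the members was -0.10, beside 0.01 over all genes tested, and the median size of the change was 0.61 beside 0.23. In 7 members no library of one group fell within the range of the other, which was so for 51.1% of all genes tested. In bulk RNA, fewer cells of a type and less RNA per cell cannot be told apart.

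**Figure D1:**
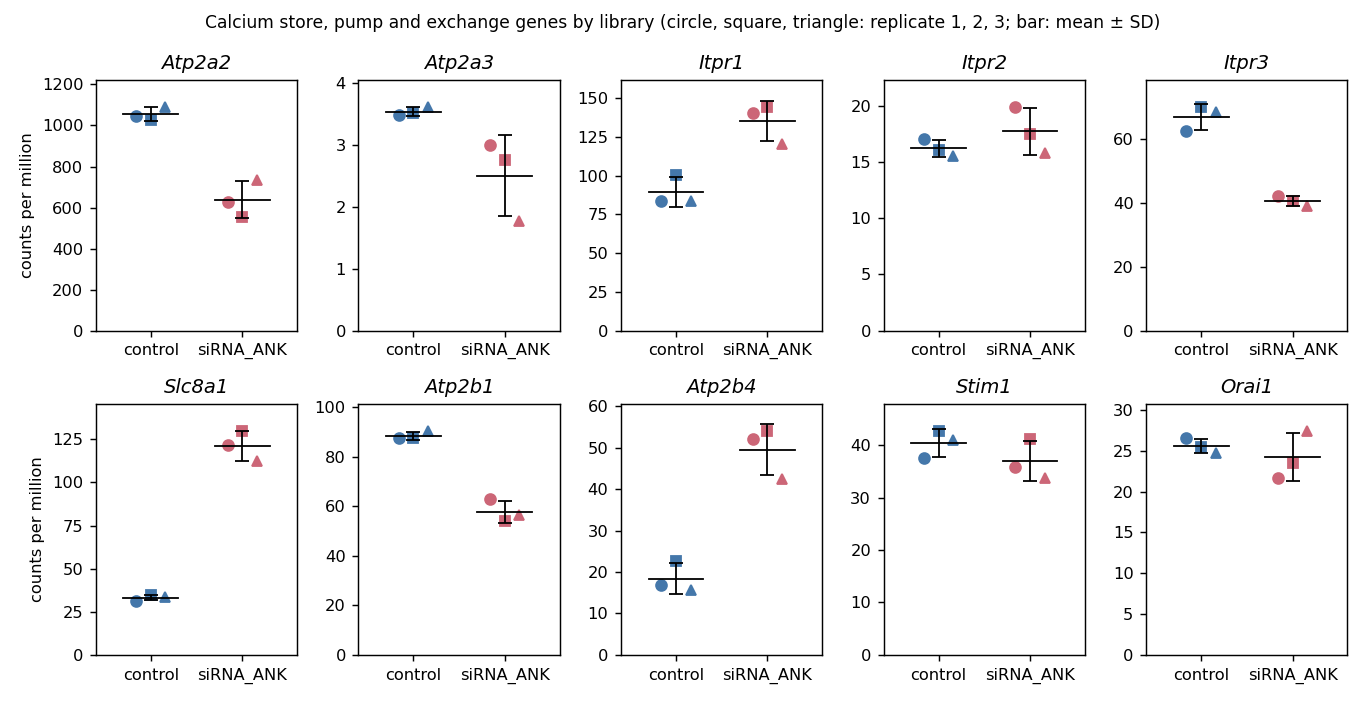
Level in CPM (linear axes from 0) of the 10 genes in each of 6 libraries, with controls in blue and siRNA_ANK in red, the replicates as circle, square and triangle, and black bars for the mean ± SD of 3 libraries. The groups are apart for Atp2a2, Atp2a3, Itpr1, Itpr3, Slc8a1, Atp2b1 and Atp2b4, and overlap for Itpr2, Stim1 and Orai1.

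Slc8a1 had the largest change among the members. It encodes NCX1, which trades sodium for calcium across the plasma membrane and can run in either direction. Slc8a1 (ENSRNOG00000008479, mRatBN7.2 chromosome 6, 13194662 to 13535628, plus strand) measured 31.5, 34.7 and 33.4 CPM in control replicates 1, 2 and 3. It measured 121, 130 and 113 CPM in siRNA_ANK replicates 1, 2 and 3. Every siRNA_ANK library was more than 3 times as high as any control, and the spread within each group was small beside that gap. The rise was 3.65-fold, from 33.2 ± 1.62 to 121 ± 8.64 CPM (SD, n = 3), or 1.87 ± 0.07 (SE) in log2 units (adjusted p = 1.23e-10 by edgeR). By p-value Slc8a1 ranked 14th of the 13016 genes tested, and by log2 fold change it had rank 173 from the top.

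The plasma membrane pumps moved in opposite directions. Atp2b1 encodes PMCA1, the widely expressed form of this pump, and Atp2b4 encodes PMCA4. Atp2b1 (ENSRNOG00000004026, chromosome 7, 33735871 to 33843295, plus strand) was 87.5, 87.6 and 90.5 CPM over control replicates 1 to 3, against 62.8, 54.1 and 56.6 CPM over those of siRNA_ANK. All siRNA_ANK values were below all control values, and the controls lay within a few CPM of each other. The fall was 1.53-fold, or -0.61 ± 0.07 (SE) in log2 units (adjusted p = 4.74e-06 by edgeR). Atp2b4 (ENSRNOG00000003031, chromosome 13, 45156146 to 45255246, minus strand) was 16.9, 22.6 and 15.7 CPM over control replicates 1 to 3, against 52.1, 54.0 and 42.4 CPM over those of siRNA_ANK. Replicate 2 was the highest control and replicate 3 the lowest siRNA_ANK library, and the groups did not overlap. The rise was 2.69-fold, or 1.43 ± 0.14 (SE) in log2 units (adjusted p = 1.69e-05 by edgeR).

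The balance of both PMCA genes therefore differed between the groups while their sum differed little. Levels were compared between genes per length, as CPM per kilobase of the gene length in the files. On this scale Atp2b4 made up 11.3%, 14.5% and 10.2% of the Atp2b1 and Atp2b4 sum in the controls and 35.3%, 39.6% and 33.0% in siRNA_ANK. The sum itself was 18.1, 18.8 and 18.5 in the controls and 17.8, 16.5 and 15.5 CPM per kilobase in siRNA_ANK. All sums in siRNA_ANK lay below the controls, by 1.11-fold in the means. The ratio of Atp2b4 to Atp2b1 was 4.16-fold higher in siRNA_ANK, with a log2 difference of 2.06. In a two-sided exact permutation test over libraries it had p = 0.1, the smallest that 3 against 3 can give (0.14 adjusted over 7 pairs of genes).

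The transcript of the exchanger gene Slc8a1 overtook that of the pump gene Atp2b1. Protein and calcium transport were not measured in these libraries. Per length, Slc8a1 stood at 0.275, 0.303 and 0.282 of the Atp2b1 level in the controls and at 1.48, 1.83 and 1.52 of it in siRNA_ANK. The order of these genes was reversed in every siRNA_ANK library. The log2 ratio was higher by 2.48, or 5.59-fold (exact permutation p = 0.1, the smallest possible, and 0.14 adjusted).

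**Figure D2:**
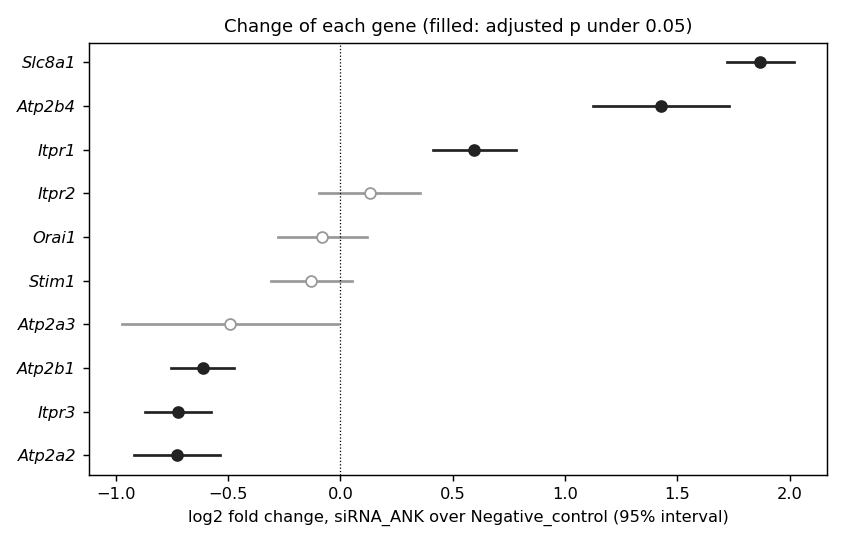
Log2 fold change of each of the 10 genes, siRNA_ANK over control, with its 95% interval from the edgeR fit, where filled points passed an adjusted p of 0.05 and open points did not. Slc8a1 (1.87), Atp2b4 (1.43) and Itpr1 (0.60) lie to the right of 0, and Atp2b1 (-0.61), Itpr3 (-0.72) and Atp2a2 (-0.73) to the left.

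The IP3 receptors changed in make-up. Itpr1, Itpr2 and Itpr3 encode the 3 forms of the channel, which assemble as tetramers and differ in their sensitivity to IP3 and calcium. Itpr1 (ENSRNOG00000007104, chromosome 4, 141187418 to 141510491, plus strand) was 83.8, 100.4 and 83.8 CPM over control replicates 1 to 3, against 140, 145 and 120 CPM over those of siRNA_ANK. Control replicate 2 and siRNA_ANK replicate 3 came closest to each other, without overlap. Itpr1 rose 1.51-fold, or 0.60 ± 0.09 (SE) in log2 units (adjusted p = 0.000142 by edgeR). Itpr3 (ENSRNOG00000052795, chromosome 20, 5136441 to 5202337, plus strand) was 62.6, 70.3 and 68.5 CPM over control replicates 1 to 3, against 42.4, 40.7 and 39.0 CPM over those of siRNA_ANK. The siRNA_ANK libraries were close together and all below the controls. Itpr3 fell 1.65-fold, or -0.72 ± 0.07 (SE) in log2 units (adjusted p = 1.56e-06 by edgeR).

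Itpr2 (ENSRNOG00000001804, chromosome 4, 179027281 to 179404164, minus strand) did not pass the test. It measured 17.05, 16.0 and 15.6 CPM over control replicates 1 to 3, against 19.9, 17.5 and 15.8 CPM over those of siRNA_ANK, and the groups overlapped. Its log2 fold change was 0.13, with a 95% interval from -0.09 to 0.35 (edgeR adjusted p = 0.354). Per length, Itpr1 held 51.5%, 53.8% and 49.9% of the receptor sum in the controls and 70.4%, 72.3% and 69.6% in siRNA_ANK, while Itpr3 went from 41.4%, 40.5% and 43.8% to 22.9%, 21.8% and 24.2%. Itpr2 stayed the smallest part, at 5.77% to 7.06% over all libraries. The receptor sum was 16.2, 18.6 and 16.8 CPM per kilobase in the controls and 19.9, 19.96 and 17.2 in siRNA_ANK, so the sums of the groups overlapped. The ratio of Itpr1 to Itpr3 was 1.14 to 1.33 in the controls and 2.87 to 3.31 in siRNA_ANK, 2.49-fold higher. The ratios of Itpr1 to Itpr2 and of Itpr2 to Itpr3 were 1.39-fold and 1.80-fold higher. None of these 3 ratios overlapped between the groups, and each had an exact permutation p = 0.1, the smallest possible (0.14 adjusted).

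**Figure D3:**
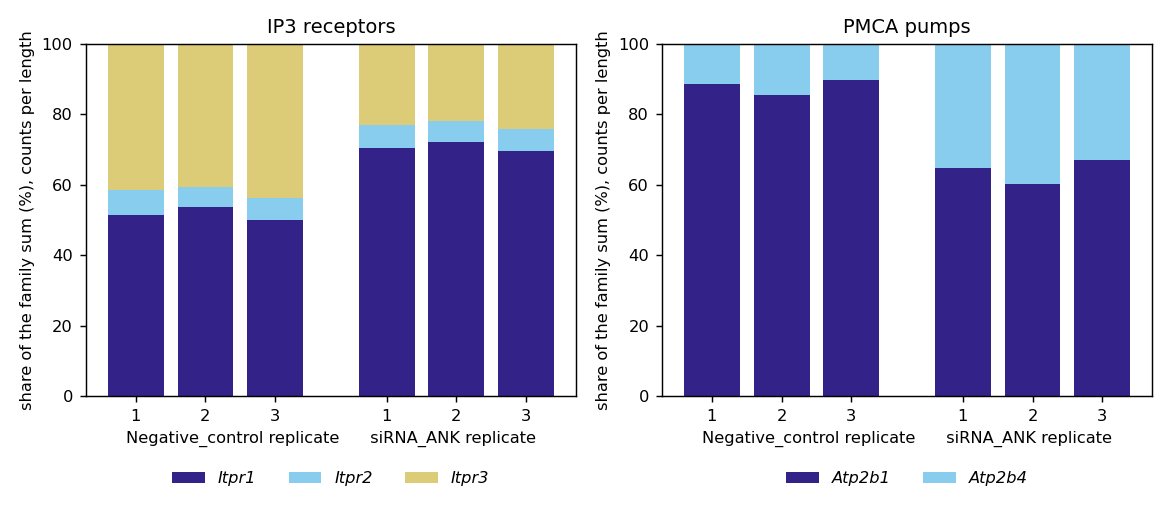
Share of each gene in the sum of its family in every library, in percent of CPM per kilobase, for the IP3 receptors (Itpr1, Itpr2, Itpr3) and the plasma membrane pumps (Atp2b1, Atp2b4). In siRNA_ANK the Itpr1 share is near 70% instead of near 50%, and the Atp2b4 share is 33.0% to 39.6% instead of 10.2% to 14.5%.

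The store pump Atp2a2 fell. This gene encodes SERCA2, the main pump that loads the stores of smooth muscle. Atp2a2 (ENSRNOG00000001285, chromosome 12, 34072683 to 34122101, plus strand) measured 1045, 1029 and 1092 CPM over control replicates 1 to 3, against 627, 553 and 733 CPM over those of siRNA_ANK. Replicate 3 was the highest siRNA_ANK library and still lay well below the lowest control. The fall was 1.66-fold, from 1055 ± 32.9 to 637 ± 90.4 CPM (SD, n = 3), or -0.73 ± 0.09 (SE) in log2 units (adjusted p = 5.67e-05 by edgeR). Its paralog Atp2a3, which encodes SERCA3, was scarce, with 58 to 62 counts per control library and 28 to 50 per siRNA_ANK library. Atp2a3 (ENSRNOG00000017912, chromosome 10, 57582128 to 57612748, plus strand) was 3.49, 3.51 and 3.62 CPM over control replicates 1 to 3, against 2.998, 2.76 and 1.77 CPM over those of siRNA_ANK. The groups did not overlap, yet the gene did not pass the test. Its log2 fold change was -0.49 (95% interval -0.97 to -0.01, not corrected for the number of genes, edgeR adjusted p = 0.0966). The counts of Atp2a3 are uncertain, since its interval overlaps that of Itgae on the same strand. Per length Atp2a2 made up 99.7% to 99.9% of the SERCA sum in each library, and the Atp2a3 to Atp2a2 ratio overlapped between the groups (exact permutation p = 0.4, 0.467 adjusted).

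The sensor and the entry channel of store-operated calcium entry did not pass the test. Stim1 (ENSRNOG00000020425, chromosome 1, 156656013 to 156818363, plus strand) was 37.6, 42.7 and 41.0 CPM over control replicates 1 to 3, against 35.9, 41.1 and 33.8 CPM over those of siRNA_ANK. Orai1 (ENSRNOG00000001336, chromosome 12, 33534344 to 33548405, minus strand) was 26.5, 25.5 and 24.7 CPM over control replicates 1 to 3, against 21.7, 23.5 and 27.4 CPM over those of siRNA_ANK. Both genes overlapped between the groups, and siRNA_ANK replicate 3 was the lowest library for Stim1 and the highest for Orai1. The log2 fold change of Stim1 was -0.13 (95% interval -0.31 to 0.05, edgeR adjusted p = 0.247), and that of Orai1 was -0.08 (95% interval -0.28 to 0.12, edgeR adjusted p = 0.528). Their ratio per length, Orai1 to Stim1, was 1.83 to 2.16 in the controls and 1.75 to 2.48 in siRNA_ANK (exact permutation p = 0.8, 0.8 adjusted). The sign of its difference turned from 0.05 to -0.11 on the log2 scale without siRNA_ANK replicate 3.

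Ranked by level per length, Atp2a2 stood far above the rest in both groups. In the controls it measured 183 ± 5.71 CPM per kilobase, followed by Orai1 (19.2 ± 0.663), Atp2b1 (16.3 ± 0.305), Stim1 (9.95 ± 0.646), Itpr1 (8.91 ± 0.954), Itpr3 (7.197 ± 0.431), Slc8a1 (4.67 ± 0.227), Atp2b4 (2.22 ± 0.444), Itpr2 (1.09 ± 0.0513) and Atp2a3 (0.325 ± 0.00664). Of these neighbours only Stim1 and Itpr1 overlapped between libraries. In siRNA_ANK Atp2a2 was at 111 ± 15.7 and Slc8a1 at 17.04 ± 1.21 CPM per kilobase, so that Slc8a1 had moved from rank 7 to rank 3. The Slc8a1 level there overlapped that of Orai1, at 18.2 ± 2.19, and Atp2b1 (10.6 ± 0.823) overlapped Stim1 (9.09 ± 0.930). Itpr1 was at 13.5 ± 1.29 and now stood above Atp2b1, and Atp2b4 was at 5.98 ± 0.752 and above Itpr3 (4.36 ± 0.181).

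**Figure D4:**
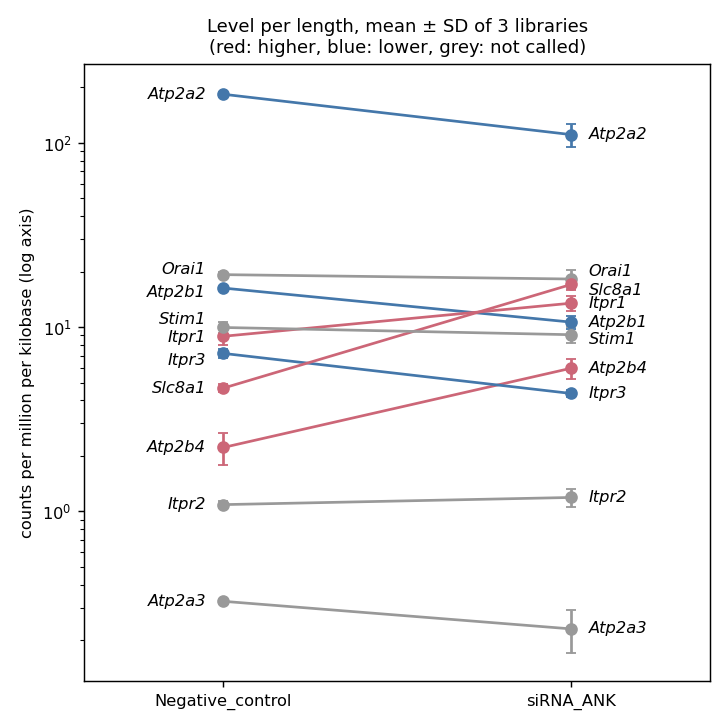
Mean level per length of the 10 genes in both groups, in CPM per kilobase on a log axis, with error bars for the SD of 3 libraries and colours for the call. The line of Slc8a1 climbs from rank 7 to rank 3 and crosses those of Itpr3, Itpr1, Stim1 and Atp2b1, while Atp2a2 stays on top at 183 and 111.

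Libraries did not contribute evenly to these differences. For Slc8a1, Atp2a2, Atp2b4 and Itpr1, 4 of the 6 called members, control replicate 2 and siRNA_ANK replicate 3 were the libraries nearest to the other group. For Atp2b1 and Itpr3 it was replicate 1 of each group. Control replicate 2 and siRNA_ANK replicate 3 were also nearest for every smooth muscle marker that rose. The share of all genes with that pattern was not counted. Within siRNA_ANK, replicate 3 had the most Ankh, at 120 CPM against 84.9 and 76.7 CPM in replicates 1 and 2. Whether this bears on the pattern was not tested. Without control replicate 2 and siRNA_ANK replicate 3, the same 6 members were called, 3 higher and 3 lower. For the 4 members where these libraries were nearest to the other group, leaving them out widens the gap. The kept calls of these 4 members therefore say nothing of stability.

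The genes whose values ran closest to a member were searched for the largest rise and the largest fall. Over the 6 libraries, the log2 CPM of Slc8a1 had its highest Pearson correlations with NEWGENE_1308171 (r = 0.9997), Dnajc27 (r = 0.9992) and Tdrp (r = 0.9991). Dnajc27 rose only 1.28-fold, from 10.3 ± 0.0912 to 13.2 ± 0.195 CPM, and NEWGENE_1308171 5.09-fold, from 120 ± 6.39 to 610.0 ± 48.9 CPM. Atp2a2 ran closest to Mcfd2 (r = 0.9997), Arhgdia (r = 0.9996) and Glce (r = 0.9993). Mcfd2, a cargo receptor subunit between the endoplasmic reticulum and the Golgi, fell 1.99-fold from 148 ± 5.78 to 74.4 ± 14.03 CPM. These points are 2 groups of 3 libraries, so any gene that differs evenly between the groups correlates. Of 8601 genes compared, 860 had r over 0.95 with Slc8a1 and 1016 with Atp2a2.

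The other genes of calcium handling were followed in 7 lists of 161 entries, of which 149 matched by symbol and 125 rows were tested. Of these, 28 rose and 39 fell, or 53.6% called beside 40.1% over all genes, with a median log2 fold change of -0.06. Without control replicate 1 the number that rose was 18. The lists were also chosen with earlier results known, so their larger share cannot show that calcium genes changed more often. Among other pumps and exchangers 2 of 5 tested rose and 1 fell. The mitochondrial sodium-calcium exchanger gene Slc8b1 fell 1.47-fold from 25.02 ± 1.65 CPM in the controls (edgeR adjusted p = 0.000192), the reverse of Slc8a1. Slc24a3, a potassium-dependent sodium-calcium exchanger, rose 1.27-fold. Atp2c1, the calcium and manganese pump of the Golgi, rose 1.19-fold (edgeR adjusted p = 0.0283). That call did not hold when any control library, or replicate 1 or 2 of siRNA_ANK, was left out (adjusted p by edgeR = 0.0694, 0.0910, 0.0723, 0.0692 and 0.167, log2 fold change 0.26, 0.23, 0.25, 0.26 and 0.14 beside 0.25 with all libraries), which left 1 rise in the list.

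Among pump regulators and structural genes of the store, 3 of 13 tested rose and 4 fell. Tmem38a, which encodes a potassium channel of the store membrane, rose 1.67-fold from 8.37 ± 0.528 to 14.01 ± 1.30 CPM. Jph2, whose protein junctophilin ties the store to the plasma membrane, fell 1.25-fold, and Fkbp1a, which binds calcium release channels, fell 1.23-fold. In the store-operated entry list 2 of 12 rose and 4 fell. Saraf, which encodes a protein that turns down store-operated entry, fell 1.84-fold from 443 ± 17.2 to 241 ± 32.5 CPM (edgeR adjusted p = 5.04e-06). Esyt1, a tether between the reticulum and the plasma membrane, fell 1.61-fold and Grina fell 1.39-fold. In this list 3 genes were called without control replicate 1 or siRNA_ANK replicate 2. No gene of it rose when control replicate 1 or siRNA_ANK replicate 1 or 2 was left out, and 1 rose without replicate 3 of either group, with DESeq2, or with a floor of 5 CPM on the mean.

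In the IP3 list, 7 of 24 genes rose and 4 fell. Plcb4 and Plce1, which encode phospholipases C that make IP3, rose 1.80-fold from 45.5 ± 3.48 to 81.9 ± 0.824 CPM and 2.25-fold from 13.0 ± 1.16 to 29.2 ± 5.21 CPM (edgeR adjusted p = 2.47e-07 and 9.35e-06). Ahcyl2, a relative of the IP3 receptor partner IRBIT, fell 1.38-fold. Leaving out siRNA_ANK replicate 2 gave 4 rises, and leaving out siRNA_ANK replicate 1 gave 2 falls. Of 21 genes of mitochondrial uptake and contact sites none rose and 6 fell, and 1 rose without control replicate 3. Vdac1, which encodes a channel of the outer mitochondrial membrane, fell 1.23-fold, and Letm1 fell 1.20-fold. In the list of calmodulin, calcineurin and CaM kinase genes 9 of 29 rows rose and 6 fell, and 5 rose without control replicate 1. The calcineurin regulators Rcan2 and Rcan1 moved apart, with Rcan2 3.06-fold higher (10.7 ± 2.05 to 32.6 ± 6.46 CPM) and Rcan1 1.399-fold lower (78.9 ± 6.23 to 56.4 ± 2.30 CPM). Ppp3ca, a catalytic subunit of calcineurin, rose 1.49-fold.

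The list with the largest shift in its median was that of calcium-binding and folding proteins listed for the endoplasmic reticulum, at -0.46. Of its 21 genes, 14 fell and 5 rose. Its median and its sum moved the same way as Atp2a2. In its group siRNA_ANK replicate 3 was the highest for the summed list (18156 CPM), as it was for Atp2a2. The sums were 33185 to 39116 CPM in the controls and 12503 to 18156 CPM in siRNA_ANK. Canx fell 1.56-fold, Nucb1 1.38-fold, and Selenon, a selenoprotein of the reticulum, rose 1.39-fold. The genes with the exact ER stress element printed above other than Canx were chosen for that element after their values had been seen. Calr, which encodes a calcium-buffering protein of the lumen, fell 2.51-fold from 3437 ± 330.2 to 1368 ± 255 CPM (edgeR adjusted p = 0.000415), and Hsp90b1 fell 3.91-fold (adjusted p = 0.00475). Hspa5 fell 3.995-fold (adjusted p = 0.0168), a call that was lost when control 1, control 3 or siRNA_ANK 1 was left out (adjusted p by edgeR 0.0534, 0.0550 and 0.0630), with log2 fold changes of -1.97, -1.96 and -1.90 beside -1.998 with all libraries. The fall of Atp2a2, at 1.66-fold, was nearest in size to that of Canx, and its place among these genes is a description with no test.

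**Figure D5:**
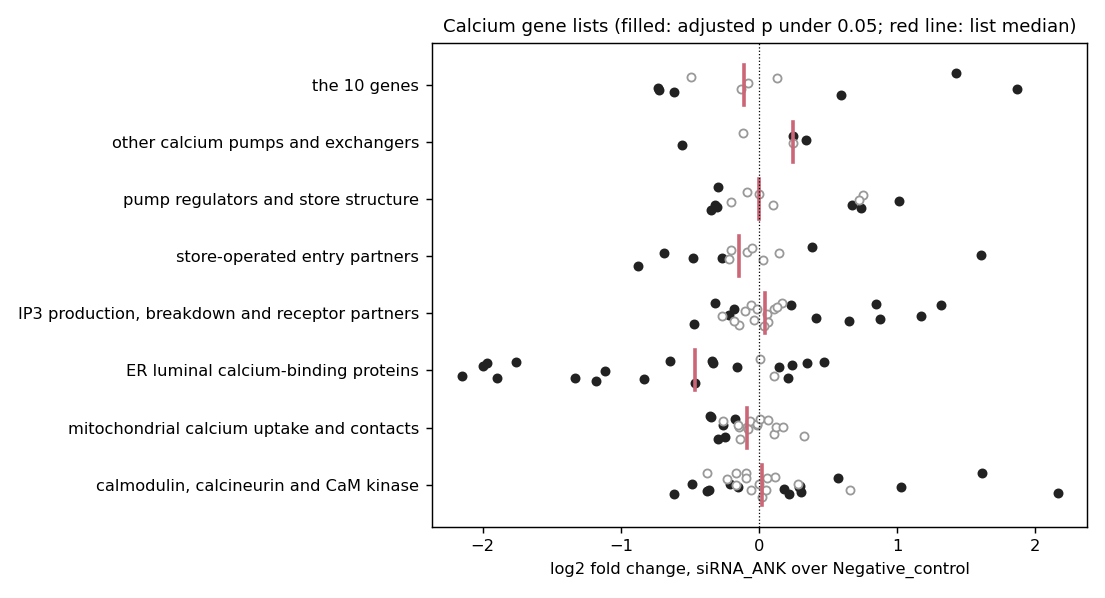
Log2 fold change, siRNA_ANK over control, of every tested gene in the 10 genes and the 7 other calcium lists, with filled points at an adjusted p under 0.05, open points otherwise, and a red line at each list's median. The median of the endoplasmic reticulum list (-0.46) lies farthest from 0, and the 10 genes spread from -0.73 to 1.87.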

How the data were processed

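The authors deposited 1 file per library with raw gene counts and gene lengths in bases. The tools named per the submitters' processing notes are DESeq2 and featureCounts 1.5.0-p3, with the build mRatBN7.2. No source used here gives the aligner or the strand setting, so overlapping genes cannot be told apart by strand. Unnamed loci (385 rows, 0.306% to 0.339% of counts) were kept. The tests used edgeR 4.0.16 (R 4.3.3): filterByExpr (minimum count 10, minimum total 15), TMM factors of 0.979 to 1.02, and the two-sided quasi-likelihood test with robust dispersions and group as its only term. SE is the size of the log2 fold change over the square root of F. Ratios of genes were tested by exact permutation of libraries. No pair of replicates agreed within sampling noise (chi-square per degree of freedom 2.83 to 12.3). Members and lists were chosen with earlier results of these data known. The genes named are the members, Ankh, up to 3 called genes per list by adjusted p, and the 3 genes most correlated with the largest rise and fall (mean of at least 10 CPM, 0.5 added before the log2). Casq1, Casq2, Calr, Hsp90b1, Hspa5 and the cell type markers were named outside that rule. A gene that the rule also named is not reported here. Alternatives were DESeq2 1.42.0, limma-voom (limma 3.58.1), other scalings and filters, a replicate block and leaving out libraries. Promoter sequences are from RefSeq, build GRCr8, which is not the build of the files.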

Additional observations from a re-analysis of the deposited data

How the results depend on the processing

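The 6 called members kept their direction and call, and the other 4 stayed uncalled, under each of the 15 alternatives, except that Atp2a3 fell below the filter of at least 5 CPM on average. Over them the log2 fold change ranged from 1.82 to 1.95 for Slc8a1, 1.32 to 1.70 for Atp2b4, 0.54 to 0.76 for Itpr1, -0.86 to -0.64 for Atp2a2, -0.77 to -0.66 for Itpr3 and -0.68 to -0.57 for Atp2b1. Leaving out 1 library at a time gave 51 to 72 called genes in the other calcium lists instead of 67, with 18 (without control replicate 1) to 28 of them higher, and 31 were higher without both control replicate 2 and siRNA_ANK replicate 3. The log2 difference of the Orai1 to Stim1 ratio turned from 0.05 to -0.11 without siRNA_ANK replicate 3, where the leave-one-out values ran from -0.11 to 0.15, and to -0.15 without both control replicate 2 and siRNA_ANK replicate 3; the cause was not tested. With the replicate block, 5210 genes were called instead of 5223, with the same 6 members and 66 of the other calcium genes. Same-numbered libraries did not deviate together (correlations of -0.03, 0.08 and 0.05), 2 of 3 controls correlated best with their own number, and the numbers were not taken as pairs. The exact permutation tests of ratios reach p = 0.1 at best, and 0.25 with the replicate block, so their p-values say nothing of stability. Depth limits Atp2a3 most, at 28 to 62 counts a library.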
